A study of Homo sapiens with 16 samples.

Results

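The samples described here are 4 of the 16 arrays of a time series in U937 cells: AML1-ETO induced cells at 48 h (2 replicates) and AML1-ETO induced cells at 24 h (2 replicates). They were chosen by their labels, and the change between these times was set beside that of control cells at 48 h (2 replicates) and control cells at 24 h (2 replicates). U937 is a human monocytic leukaemia cell line. All 4 groups carry the same AML1-ETO construct under a tetracycline promoter, and the controls are the uninduced cells; the labels do not name the agent that was added or withdrawn. The study is thus a model in 1 cell line with a fusion gene driven by an artificial promoter, not by that of RUNX1. Cells grew in RPMI medium with fetal calf serum, and RNA was hybridised to Affymetrix U95Av2 arrays. The comparison asks which transcripts changed on the second day after induction and whether uninduced cells changed over the same hours.

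AML1-ETO is the fusion protein of a translocation found in acute myeloid leukaemia. It joins the DNA-binding domain of RUNX1 (AML1), a transcription factor needed for blood cell formation, to most of RUNX1T1 (ETO), which binds corepressors and histone deacetylases. In myeloid cells it is known for repressing genes that RUNX1 and its partners CEBPA and SPI1 (PU.1) activate, and for blocking granulocytic and monocytic maturation.

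All values are scaled intensities, 1 per probe set and array, in arbitrary units. Values below 135.6 were set to this floor before log2 was taken, and 7824 probe sets that exceeded the median of all values on at least 2 of the 16 arrays were tested. Array medians lay between 220.3 and 337.5, and replicates correlated at r = 0.926 (induced 48 h), 0.955 (induced 24 h) and 0.912 or more in every group. RUNX1T1 marks the construct, and its 1 tested probe set read 8649.6 and 3974 at 48 h, against 1592 and -47.5 at 24 h, while all 8 control arrays read at most 91.4. Folds here are ratios of means taken on the log2 scale, and "at least" is a bound on that scale, which can differ from the ratio of mean intensities. Both arrays at 48 h lay above both at 24 h, and replicate 2 of 24 h was under the floor (log2 change 3.66, SE 0.80, at least 12.6-fold, adjusted p = 0.00737, limma). RUNX1T1 was also under the floor on both induced arrays at 12 h (-116 and 86.1) and high on both at 72 h (10603 and 8355). The call for RUNX1T1 was lost without replicate 1 of 48 h (adjusted p = 0.0745), in a fit of the 8 arrays of these groups (0.0589) and in a fit of the 4 induced arrays (0.19). Its 3 other probe sets, which stayed between -454.8 and 352 on all 16 arrays, were not tested. RUNX1 is not reported as a level because its probe sets carry several gene symbols.

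Of 10 markers of U937 cells with a probe set of 1 symbol, the lysozyme gene LYZ, CD4 and FUT4 were above the floor on all 4 induced arrays, MPO and SPI1 on 3 and CD14 on 1. CD68, CSF1R, ITGAM and ANPEP were above it on none, so the monocytic label rests on few detected markers here. Of 20 lymphoid markers, 11 were above the floor on no induced array, among them CD3D, MS4A1 and PAX5. However, 7 were above the floor on all 4: CD3E, CD7, CD79A, CD22, IL7R, LCK and CD8A. The summed intensity of all 20, with values below 0 counted as 0, was 5993 to 6669.9 at 48 h, against 7233 to 7724 at 24 h. Among 14 erythroid and megakaryocyte markers, PPBP and GP9 were above the floor on none, and ALAS2, EPOR, ITGA2B and TFRC on all 4. The sums of the 14 were 9027 to 11289 at 48 h, against 11077 to 13349.8 at 24 h. Of 18 epithelial and fibroblast markers, 10 (EPCAM, KRT18, COL1A2 and VWF among them) were above the floor on none, and KRT8, COL1A1, COL6A1 and PDGFRB on all 4. The sums of the 18 were 6919 to 8194 at 48 h, against 5822 to 7504 at 24 h. With values below 0 kept, the lymphoid sums were 2429 to 3326 at 48 h, against 5458 to 5945 at 24 h. None of the tested lymphoid genes was called, TFRC, the transferrin receptor, fell (log2 -1.07, adjusted p = 0.0289) and CDH1, E-cadherin, rose (at least 5.69-fold, adjusted p = 0.0345). CDH1 was called in none of the fits with 1 induced array left out, and TFRC not without replicate 1 of 48 h or replicate 2 of 24 h. The part of these markers in the results below was not tested.

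Between 24 h and 48 h the transcriptome of induced cells changed broadly, while that of control cells gave no call. In induced cells 1223 of 7824 probe sets (15.6%) passed an adjusted p under 0.05 with limma, of which 562 (7.18%) were higher and 661 (8.45%) lower at 48 h. The same hours in control cells gave 0 calls (0%), with 271 probe sets at an unadjusted p under 0.05, against 2133 in induced cells, and a smallest adjusted p of 0.236. On 59.4% of the probe sets both induced arrays at 48 h lay on the same side of both at 24 h, against 26.4% in control cells. Every rise and fall called in induced cells had this separation, so lack of overlap adds no support to a call. The test of the difference itself, the induced change minus the control change, called 382 probe sets (4.88%), 141 higher (1.8%) and 241 lower (3.08%). Of these, 376 were also called in induced cells alone with the same sign, which is 98.4% of the difference calls and 30.7% of the induced calls.

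The called rises had a median log2 change of 1.31 in induced cells and 0.05 in control cells, and the called falls had medians of -1.31 and -0.05. Rises of 2-fold or more numbered 403 and of 8-fold or more 18, beside 449 and 24 falls of these sizes. Arrays that did not enter the contrast were then set beside it. They did share in the filter and in the error of the fit, so they are not wholly apart from the choice of calls. Of all 7824 probe sets, 59.4% were above 0 in induced cells at 72 h minus 12 h, and 40.2% in control cells at 72 h minus 0 h. Induced cells at 72 h minus induced cells at 12 h had the same sign for 558 of the 562 called rises (99.3%, median log2 1.79) and for 655 of the 661 called falls (99.1%, median -1.61). Control cells at 72 h minus control cells at 0 h had the same sign for 174 of the rises (31.0%) and 267 of the falls (40.4%). In bulk RNA, fewer cells that express a gene and less of its RNA per cell cannot be told apart. No label says that the replicates were separate cultures, so the error behind each p-value is the spread of these samples alone and may be technical. Where both arrays of a group were set to the floor, that group added no spread, which lowers the error. With 1 array left out, the count of calls in induced cells was 732 and 707 without replicates 1 and 2 of 48 h, and 717 and 499 without replicates 1 and 2 of 24 h. The count of difference calls was 195 and 277 without these replicates of induced cells at 48 h, 218 and 126 without those at 24 h, 185 and 170 without replicates 1 and 2 of control cells at 48 h, and 372 and 201 without those at 24 h.

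**Figure D1:**
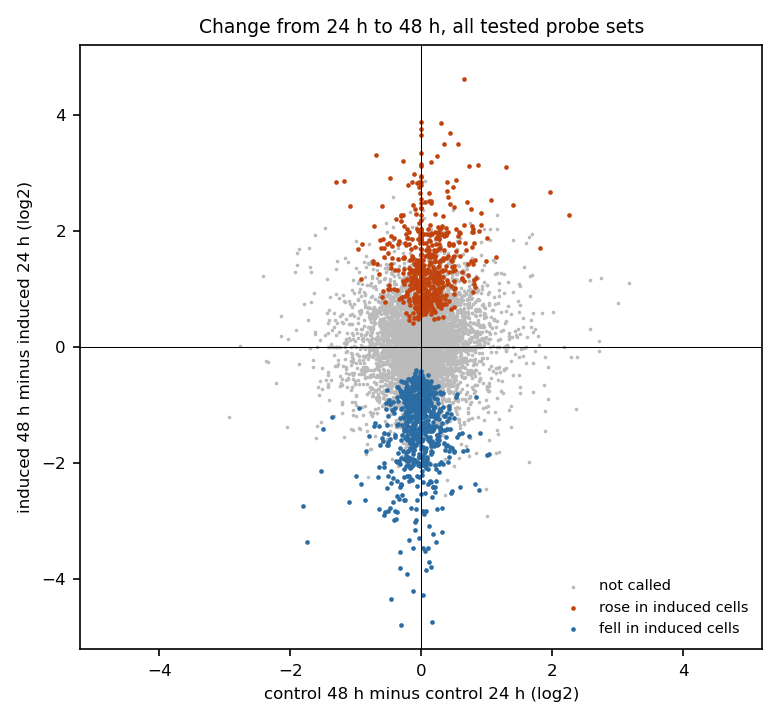
Each point is 1 of 7824 tested probe sets, with the log2 change of control cells (48 h minus 24 h) on the x axis and that of induced cells on the y axis; colours mark the 562 rises and 661 falls called in induced cells. The called points spread along the y axis and lie mostly near 0 on the x axis (median control change 0.05 for rises and -0.05 for falls).

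The largest rises at 48 h included a cell cycle inhibitor, a chromatin remodelling subunit, genes of the interferon and NF-kB responses, and the construct itself. CDKN1A, which encodes the cyclin-dependent kinase inhibitor p21, read 1584 and 2132 at 48 h, against -86.6 and -160.4 at 24 h in induced cells, and 50.1 and -793 at 48 h and -925 and -254 at 24 h in control cells. Only the 2 induced arrays at 48 h were above the floor among these 8, and the rise was at least 13.6-fold (log2 3.76, SE 0.35, adjusted p = 3.54e-05). Groups with both arrays set to the floor have no spread in the fit, so this SE and p are partly set by the floor. TMT1A, a thiol methyltransferase gene, had 2831 and 2128 at 48 h, against 151 and 186 at 24 h, a 14.7-fold rise without overlap (log2 3.87, SE 0.35, adjusted p = 3.54e-05). SMARCD3, a subunit of the SWI/SNF chromatin remodelling complex, had 1732 and 2237 at 48 h, against 82.3 and 88.4 at 24 h (at least 14.5-fold higher, adjusted p = 6.63e-05), and its second probe set rose as well (log2 3.32). MAGED2, a member of the MAGE family, was already above the floor at 24 h and had 16052 and 17402 at 48 h, against 1795 and 1199 at 24 h. Control cells read 1278 and 1758 at 48 h and 1059.9 and 1319.5 at 24 h for MAGED2. The MAGED2 rise was 11.4-fold (log2 3.51, SE 0.23, adjusted p = 2.63e-06), and the induced arrays at 72 h read higher again, with 17592 and 21263. The second probe set of MAGED2 had a log2 change of 4.63, also called.

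NFKB2, the precursor of the NF-kB subunit p52, had 1231 and 1145 at 48 h, against 43.4 and -89.4 at 24 h (at least 8.76-fold higher, adjusted p = 6.63e-05). Its other 3 probe sets had log2 changes of 1.80, 1.10 and 1.30, of which the first was called. IFI6, an interferon-induced mitochondrial protein, had 1891 and 1628 at 48 h, against 175 and 58.03 at 24 h, a rise of at least 11.4-fold (adjusted p = 0.00123). Control cells read 322 and 255 at 48 h and 281 and -116 at 24 h for IFI6, and induced cells 514 and -43.7 at 12 h. The difference of the IFI6 change from that of control cells was not called (limma, adjusted p = 0.0612). For IRF9, the DNA-binding subunit of the interferon-activated ISGF3 complex, the values were 2183 and 2356 at 48 h, against 439 and -401 at 24 h. Its difference from the control change was not called either (limma, adjusted p = 0.0847). The 2 arrays of IRF9 at 24 h lay far apart, and its call (at least 9.29-fold, adjusted p = 0.0108) was lost without replicate 1 of 48 h (0.0545), replicate 2 of 48 h (0.0646) or replicate 2 of 24 h (0.135), and in a fit of the 4 induced arrays (0.0734). SEMA3A, a secreted semaphorin, rose at least 9.78-fold, TM7SF2, a sterol reductase of cholesterol synthesis, at least 9.18-fold, SSBP2, a single-stranded DNA-binding protein, 8.70-fold, and LZTS3 at least 7.62-fold (adjusted p = 0.000151, 0.000531, 0.00192 and 0.000139). Some further genes stood among the 15 largest rises with less support. MACF1, a linker of actin and microtubules, had 5701 and 6869.6 at 48 h, against 712 and 710.3 at 24 h (adjusted p = 0.0381) and was not called when any 1 of the 4 arrays was left out (adjusted p = 0.122 to 0.163). INPP4A, a phosphoinositide phosphatase, was at least 8.57-fold higher on 1 probe set, but its other 3 had log2 changes of -1.23, 0.12 and -0.75, none called. MYL6, a myosin light chain, was at least 12.9-fold higher on 1 probe set and changed by log2 0.32 (adjusted p = 0.484) on the other. The calls of INPP4A and MYL6 were lost without replicate 2 of 48 h (adjusted p = 0.158 and 0.0524), and that of INPP4A also without replicate 1 or 2 of 24 h (0.0968 and 0.113).

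**Figure D2:**
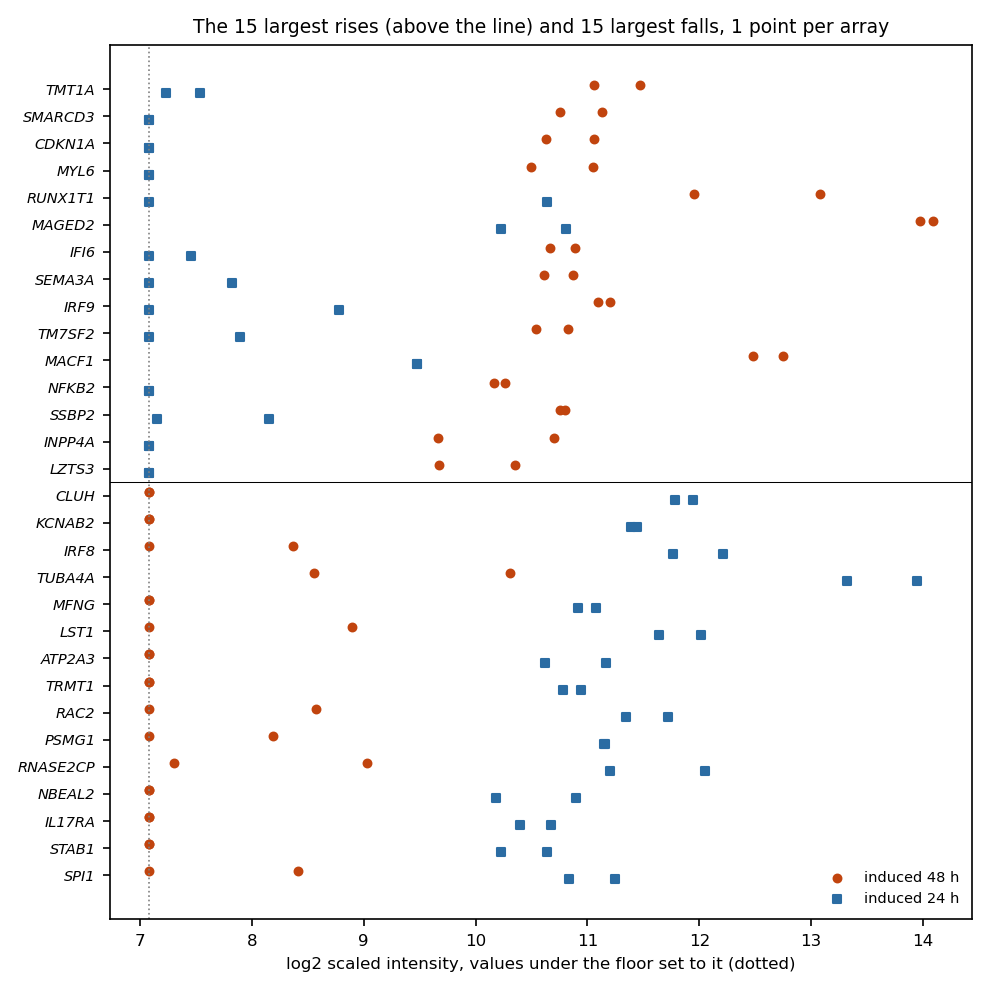
Each row is 1 gene, with the log2 scaled intensity of its 2 induced arrays at 48 h (circles) and 2 at 24 h (squares); values under the floor sit on the dotted line. In every row the circles and squares do not overlap, because the genes were chosen by that rule. Many rises start from the floor (CDKN1A, SMARCD3, NFKB2) while many falls end on it (CLUH, KCNAB2, IL17RA).

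The largest falls at 48 h included the myeloid transcription factors IRF8 and SPI1, beside genes of varied roles. IRF8, a factor that directs monocyte and dendritic cell development, read -102 and 329.5 at 48 h, against 3481 and 4758 at 24 h in induced cells. Control cells stayed high for IRF8, with 6514 and 5729.9 at 48 h and 6396 and 5669.99 at 24 h. The induced groups did not overlap, and the fall was at least 19.3-fold (log2 -4.27, SE 0.39, adjusted p = 3.54e-05); the change differed from that of control cells by log2 -4.29 (adjusted p = 0.00146). SPI1, the ETS factor PU.1 of the myeloid lineage, read 341 and -158 at 48 h, against 1825 and 2428 at 24 h in induced cells and 2602 and 2608 at 48 h and 2742 and 2622 at 24 h in control cells. Replicate 2 of 48 h was under the floor, and the fall of SPI1 was at least 9.79-fold (log2 -3.29, SE 0.35, adjusted p = 6.63e-05). At 72 h IRF8 and SPI1 remained low in induced cells, with 231 and 103 for IRF8 and 231 and 243 for SPI1.

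RUNX factors bind the letters TGTGGT, so the promoters of the named genes were searched for them on both strands, from 250 bases before to 50 after the gene start (RefSeq, GRCh38.p14). Of the 15 largest falls 9 had a promoter in the table, and 1 of these, IRF8, held the motif; of the 15 largest rises 13 had a promoter and none held it. The IRF8 promoter, with its match in capitals starting 134 bases before the gene start on the plus strand, is shown because it is the 1 of these promoters with a match (chr16:85902580-85902879).
IRF8: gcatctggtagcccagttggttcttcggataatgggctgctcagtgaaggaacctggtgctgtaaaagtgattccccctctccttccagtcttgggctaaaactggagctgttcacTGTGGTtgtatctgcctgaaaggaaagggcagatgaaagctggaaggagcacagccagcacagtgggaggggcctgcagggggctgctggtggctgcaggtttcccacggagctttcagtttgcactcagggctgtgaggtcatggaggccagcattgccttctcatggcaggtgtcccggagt
Across all genes the motif was in 26 of 361 promoters of genes that rose (7.20%), in 38 of 397 of genes that fell (9.57%) and in 398 of 3841 of tested genes that were not called (10.4%). It was in 13.1% of all 27305 promoters of the table. A match is a description of letters and not a bound site.

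The other large falls were of genes with varied roles. CLUH, an RNA-binding protein of mitochondrial transcripts, had -384 and -43.7 at 48 h, against 3523 and 3949.7 at 24 h, with both arrays at 48 h under the floor (log2 -4.78, at least 27.5-fold, adjusted p = 0.000264). KCNAB2, a potassium channel beta subunit, had -1670.4 and -1709 at 48 h, against 2689 and 2783 at 24 h (at least 20.2-fold lower, adjusted p = 2.63e-06), and its second probe set fell by 1.53 on the log2 scale. TUBA4A, an alpha tubulin, had 377 and 1267 at 48 h, against 10215 and 15779.6 at 24 h, all above the floor, and fell 18.4-fold (adjusted p = 0.000151). Its second probe set had a smaller log2 change of -2.77, also called. RAC2, which serves the NADPH oxidase of phagocytes, had 382 and -55.3 at 48 h, against 2597 and 3367 at 24 h. The RAC2 fall was at least 12.99-fold on this probe set and log2 -1.46 on the other, both called. MFNG, a glycosyltransferase that modifies Notch receptors, fell at least 15.05-fold, LST1, a leukocyte transmembrane adaptor, at least 14.3-fold, and ATP2A3, a calcium pump of the endoplasmic reticulum, at least 14.02-fold. Also among the 15 were TRMT1, a tRNA methyltransferase (at least 13.8-fold), PSMG1, a proteasome assembly chaperone (at least 11.4-fold), the pseudogene RNASE2CP (10.96-fold), NBEAL2, which is needed for granule biogenesis in platelets (at least 10.95-fold), and IL17RA, an interleukin-17 receptor subunit (at least 10.9-fold). The adjusted p-values of these 8 genes, MFNG to IL17RA, lay between 6.57e-06 and 0.00245; RNASE2CP shares sequence with its parent gene family, so its reads are uncertain. STAB1, a scavenger receptor, fell at least 10.2-fold in induced cells, but control cells also changed by log2 -1.75, and the difference of -1.61 was not called (adjusted p = 0.46). The low level of STAB1 was not kept: induced cells read 835 and 1990 at 72 h, against 1201 and 1596 at 24 h. The call of STAB1 was lost without replicate 2 of 24 h (adjusted p = 0.0613), and those of TUBA4A, LST1, RAC2, RNASE2CP and SPI1 in a fit of the 4 induced arrays alone (0.0515 to 0.0767).

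A set of 6 genes was taken for the smallest p of the difference between the induced and the control change, and IL17RA, MAGED2 and KCNAB2 are among those above. The others were MYC, ZFP36L2 and EXOSC7. MYC, the transcription factor that drives growth and ribosome synthesis, read 794 and 862 at 48 h, against 3479 and 3283 at 24 h in induced cells, while control cells read 6093 and 6747 at 48 h and 6549.8 and 7399 at 24 h. MYC was thus lower in induced than in control cells at 24 h already, and fell further, by 2.03 on the log2 scale, at 48 h, with a difference from control cells of -1.91 (adjusted p = 0.00144). At 12 h induced cells had read 8714 and 9538, and at 72 h they read 969.7 and 781. The 3 other MYC probe sets fell as well, by log2 changes of -1.43, -1.67 and -3.52. ZFP36L2, an RNA-binding protein that promotes mRNA decay, read 1008 and 1564 at 48 h, against 7375 and 10092 at 24 h in induced cells and 13707 and 14729 at 48 h and 13940.4 and 16205 at 24 h in control cells (difference -2.70, adjusted p = 0.000906). The second probe set of ZFP36L2 had a log2 change of -2.52 in induced cells. EXOSC7, a subunit of the RNA exosome, had 1249 and 1359 at 48 h, against 4423 and 3949 at 24 h in induced cells and 5020.04 and 5103 at 48 h and 4825 and 3839 at 24 h in control cells (difference -1.92, adjusted p = 0.00105).

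**Figure D3:**
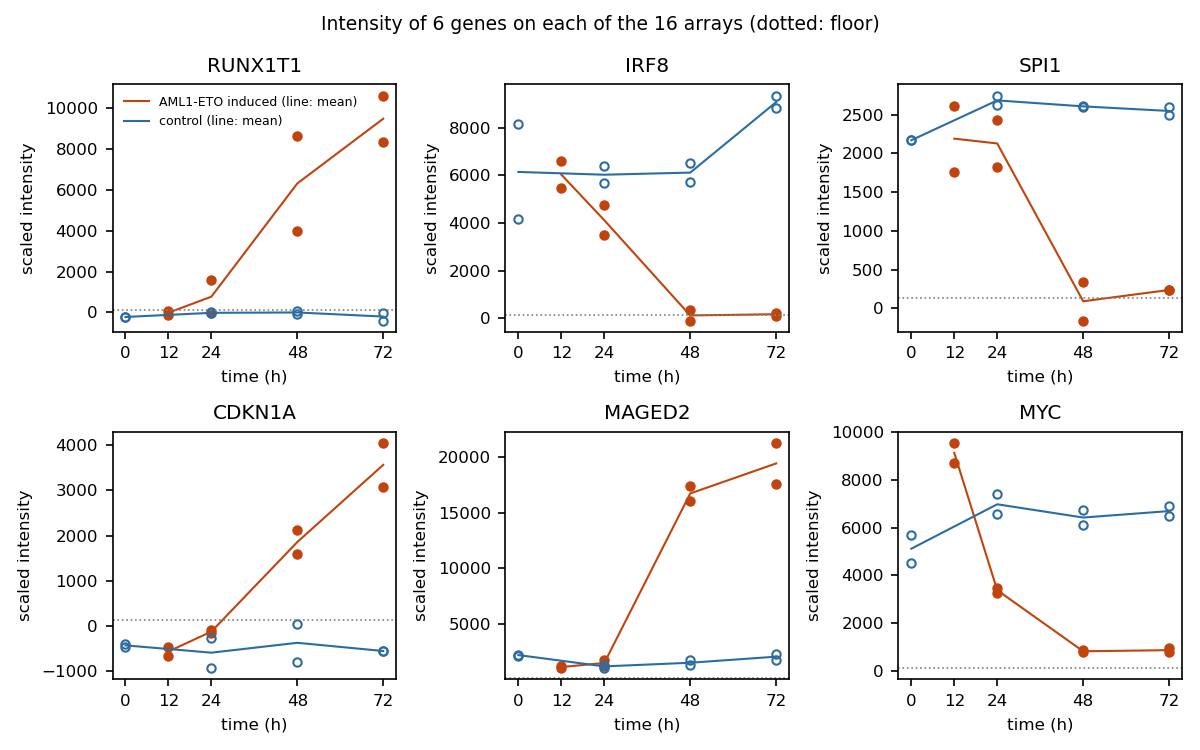
Each panel shows 1 gene on all 16 arrays, with scaled intensity on the y axis and hours on the x axis; filled points are induced and open points control replicates, lines join group means, and the dotted line is the floor. RUNX1T1, CDKN1A and MAGED2 are higher at 48 h than at 24 h in induced cells, IRF8, SPI1 and MYC are lower, and the control points of these genes show no such step.

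Gene groups were counted by genes, each through its probe set of highest mean intensity. Of 5606 tested genes 434 rose (7.74%) and 479 fell (8.54%), with a median log2 change of 0.09, and no gene of any list was called in control cells. The induced arrays of the 2 times did not overlap in 60.5% of genes, against 27.1% in control cells. The difference between the changes was called for 4.92% of genes, higher for 1.91% and lower for 3.01%. Among 21 tested myeloid transcription factors none rose and 6 fell, with a median of -0.35. Besides IRF8 and SPI1 these were CEBPA, CEBPB, LYL1 and MYB. CEBPA, the factor that drives granulocytic differentiation, read 1647 and 2548 at 48 h, against 6477 and 8821 at 24 h in induced cells and 11538 and 11769.9 at 48 h and 9782 and 12314 at 24 h in control cells. The induced groups of CEBPA did not overlap (log2 -1.88, 3.69-fold lower, adjusted p = 0.000117). CEBPB, a related factor of monocytes and inflammation, fell by 1.43, LYL1, a progenitor bHLH factor, by 1.55, and MYB, a factor of immature blood cells, by 0.62 on the log2 scale (adjusted p = 0.00228, 6.63e-05 and 0.0294). For IRF8, SPI1, CEBPA, CEBPB and LYL1, but not MYB, the difference from the control change was called, which is 5 of 21.

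Products of the primary granules, which myeloid progenitors pack with proteases, fell in 6 and rose in 1 of 15 tested cases, with a median log2 change of -0.47. CTSG, the serine protease cathepsin G, had 1037 and 1228 at 48 h, against 4132 and 6114 at 24 h, and PRTN3, proteinase 3, had 946 and 1138 at 48 h, against 3116 and 5575 at 24 h. Both fell without overlap (log2 -2.16 and -2.01, adjusted p = 7.09e-05 and 0.00157), while control cells changed by log2 0.28 and 0.28. MS4A3, a membrane protein of granulocyte progenitors, fell by 2.76, CST7, a protease inhibitor, by 1.51, SRGN, the granule proteoglycan serglycin, by 0.92 and AZU1, azurocidin, by 0.71 on the log2 scale. ELANE, neutrophil elastase, changed by log2 -0.68 and was not called (adjusted p = 0.0825). The 1 rise was GUSB, a lysosomal glucuronidase (log2 0.85). Of 10 genes of secondary granules and neutrophils only the integrin ITGB2 was called (log2 -1.31). Of 12 monocyte and macrophage markers 3 fell and none rose: LST1, the chemokine receptor CX3CR1 (log2 -1.44) and the calcium-binding AIF1 (log2 -1.08). Only 1 monocyte marker fell without replicate 1 of 48 h or without replicate 2 of 24 h.

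Membrane proteins of leukocytes moved both ways. Of 20 tested genes 4 rose and 3 fell (median 0.37). EVI2B, a leukocyte surface protein, had 3788 and 3379.9 at 48 h, against 710.3 and 347 at 24 h in induced cells and 40.4 and 6.21 at 48 h and -13.00 and 56.00 at 24 h in control cells. It was higher at 48 h than on all other arrays of these 4 groups, with a log2 change of 2.85 (adjusted p = 0.000324). CD53, a tetraspanin, had 3200.4 and 2439 at 48 h, against 625 and 392 at 24 h (log2 2.50), PECAM1, an adhesion molecule of leukocytes, platelets and endothelium, had 3430.3 and 3997 at 48 h, against 701 and 1081 at 24 h (log2 2.09), and CD69, an activation antigen, rose by log2 1.56. The falls were CD48 (at least 2.77-fold), the sialophorin SPN (log2 -1.15) and the hyaluronan receptor CD44 (log2 -0.62), and 1 gene of this list fell when any 1 array was left out. Of 25 adhesion genes 5 rose and 5 fell (median 0.03). The rises included ICAM1, a ligand of leukocyte integrins (at least 4.85-fold), the integrins ITGAX (at least 3.98-fold) and ITGB1 (log2 1.33), and the falls included the chemokine receptor CXCR4, which retains cells in the marrow (log2 -1.92), and the integrin ITGA4 (log2 -1.90). Of the adhesion genes 4 rose and 3 fell without replicate 1 of 48 h, and 3 rose and 2 fell without replicate 2 of 24 h; without replicate 1 of 24 h 3 rose. ANXA1, an anti-inflammatory annexin, had 4071 and 4481 at 48 h, against 1005 and 991 at 24 h and rose by log2 2.10, while S100A11, a calcium-binding protein, had 1406 and 2011 at 48 h, against 4896 and 4961 at 24 h and fell by 1.55 on the log2 scale. Among 30 cytoskeletal genes 7 fell and 2 rose; beside TUBA4A and RAC2 the falls included the tropomyosin TPM1 (log2 -1.73) and the actinin ACTN1 (log2 -1.29), and the rises were TUBA1A (log2 1.44) and the actin-severing gelsolin GSN (log2 1.56), for which control cells changed by 0.80 and 1.15. No cytoskeletal gene rose without replicate 2 of 24 h, and 1 rose without replicate 1 of either time.

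Of 44 tested genes of DNA replication 17 fell and none rose (median log2 -0.64), whereas of 44 genes of mitosis 1 fell and none rose (median -0.11). The fitted change was below 0 for 39 of the 44 replication genes, 30 of the 44 mitosis genes and 2453 of all 5606 genes. MCM4, a subunit of the replicative helicase, had 1359 and 1085 at 48 h, against 5684 and 5607 at 24 h in induced cells and 5399 and 4482 at 48 h and 5155 and 6059 at 24 h in control cells. MCM4 fell 4.65-fold without overlap (log2 -2.22, SE 0.36, adjusted p = 0.00101). The polymerase delta subunits POLD2 and POLD1 fell by 1.98 and 1.61, CDC6, which loads the helicase, by 1.79, the clamp loader RFC2 by 1.57 and the clamp PCNA by 1.14 on the log2 scale. All 6 helicase subunits from MCM2 to MCM7 were called, with log2 changes of -0.62, -0.70, -2.22, -0.95, -0.47 and -0.97. The 1 mitosis gene that fell was CKS2, a subunit of cyclin-dependent kinases (log2 -1.15). With 1 array left out the number of replication genes that fell was 9 and 13 without replicates 1 and 2 of 48 h, and 11 and 10 without replicates 1 and 2 of 24 h; in these fits 0 to 2 mitosis genes fell.

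Regulators of the G1 phase moved both ways. Of 24 tested genes 5 rose and 4 fell (median 0.10). Beside CDKN1A, CDKN1B, which encodes the inhibitor p27, had 2950.3 and 2472 at 48 h, against 859 and 696 at 24 h in induced cells and 777 and 752 at 48 h and 641 and 877 at 24 h in control cells, a rise of 3.49-fold (log2 1.80, adjusted p = 0.000435). CCNG2, a cyclin linked to cell cycle exit, rose by log2 1.79, CDKN2A, the locus of p16 and p14, by 1.17 and RB1, the retinoblastoma protein, by 0.99. The falls were the D-type cyclins CCND2 (log2 -1.54) and CCND1 (-1.27), their partner kinase CDK4 (-0.96) and the repressor E2F4 (-0.85). With 1 array left out the number of genes of this list that rose was 2 and 3 without replicates 1 and 2 of 48 h, and 3 and 2 without replicates 1 and 2 of 24 h, and 2 fell in each of these fits. Histone genes rose or were not called: 5 of 15 rose and none fell (median 0.98). H2BC21 had 1122 and 1421 at 48 h, against 124 and 228 at 24 h (at least 7.18-fold higher), H2BC12 rose by log2 1.96 and H2AC6 at least 3.47-fold. H2BC14 rose by log2 1.48 and the linker histone H1-10 by 0.85, beside control changes of 1.00 and 0.06. The difference from the control change was called higher for only 1 of the 15, beside 1.91% of all tested genes. Histone genes of a cluster are near copies, so their probes may share targets, and 2 of them rose without replicate 2 of 24 h.

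Ribosome biogenesis, which MYC is known to drive, held the highest share of falls of any list. Of 23 tested genes 20 fell and none rose, with a median log2 change of -1.39, while the median of control cells was -0.13. RRS1, an assembly factor of the large subunit, had 181 and 419.6 at 48 h, against 1822 and 2520.1 at 24 h in induced cells and 2117 and 1889.7 at 48 h and 2369 and 2889.9 at 24 h in control cells, and fell 7.78-fold (adjusted p = 0.000384). NOP2, an rRNA methyltransferase, had 383 and 515 at 48 h, against 1939 and 2189.6 at 24 h (log2 -2.21), and IMP4, which processes the small-subunit rRNA, had 569 and 585 at 48 h, against 2771 and 2838 at 24 h (log2 -2.28). In all of these both arrays at 48 h lay below both at 24 h. PNO1 and RRP12, factors of small-subunit export, were at least 5.33-fold and at least 5.16-fold lower, UBTF, the polymerase I factor, fell by 1.95, FBL, the methyltransferase fibrillarin, by 1.04 and NCL, nucleolin, by 0.39 on the log2 scale. NPM1, nucleophosmin, changed by log2 0.15 and was not called (adjusted p = 0.696). The difference from the control change was called lower for 8 of the 23. Cytosolic ribosomal proteins, the products assembled by this machinery, gave no call in 43 tested genes (median 0.10, range -0.40 to 0.24). With 1 array left out the number of biogenesis genes that fell was 13 and 15 without replicates 1 and 2 of 48 h, and 15 and 13 without replicates 1 and 2 of 24 h, and it was 12 in a fit of the 4 induced arrays alone.
The promoters of the biogenesis genes were searched for the E-box CACGTG, the letters that MYC and its partner MAX bind (a palindrome, so both strands are searched at once). It was in 9 of 15 promoters of the genes that fell, in 1 of 2 of those not called, in 462 of 4599 of all tested genes (10.0%) and in 7.43% of all promoters. The IMP4 promoter is shown because it holds a pair of matches, in capitals, which start 203 bases before and 15 bases after the gene start (chr2:130342647-130342946, plus strand, GRCh38.p14).
IMP4: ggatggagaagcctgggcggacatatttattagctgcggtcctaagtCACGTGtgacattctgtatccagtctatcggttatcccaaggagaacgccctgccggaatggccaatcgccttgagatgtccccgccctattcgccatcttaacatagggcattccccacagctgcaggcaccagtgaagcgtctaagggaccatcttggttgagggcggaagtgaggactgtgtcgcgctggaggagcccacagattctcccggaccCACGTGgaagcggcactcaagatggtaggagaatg
E-box letters are rich in CG, and base composition was not matched between these sets.

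Genes of amino acid supply and tRNA charging fell in 15 of 30 tested cases and none rose (median -0.63). SLC7A5, the large neutral amino acid transporter, had 4008 and 5746 at 48 h, against 18691 and 20564 at 24 h in induced cells and 23258 and 24035 at 48 h and 24092 and 22261 at 24 h in control cells. The fall of SLC7A5 was 4.09-fold (log2 -2.03, adjusted p = 3.7e-05), and its heavy chain SLC3A2 fell by 1.40 on the log2 scale. The neutral amino acid transporters SLC1A4 and SLC1A5 fell by 2.04 and 1.08 and the cystine transporter SLC7A11 by 1.79 on the same scale. CTH, which makes cysteine, was at least 4.07-fold lower, and the tRNA synthetases VARS1, IARS1, AARS1, TARS1, YARS1 and NARS1 fell by 1.34, 1.12, 0.88, 0.70, 0.62 and 0.52 on the log2 scale. In 9 of the 30 genes the difference from the control change was called, all lower. Among 19 heat shock proteins 8 fell and none rose (median -0.44), led by the mitochondrial chaperones TRAP1 (log2 -1.52) and HSPA9 (-1.16). Of 14 endoplasmic reticulum chaperones and unfolded protein response genes PDIA6 (log2 -1.20), XBP1 (-0.68) and HYOU1 (-0.66) fell (median -0.65). The difference from the control change was called lower for only 1 of the 19 heat shock genes and 1 of the 14 reticulum genes. Among all tested genes it was called lower for 3.01%. With 1 array left out, the number of amino acid and synthetase genes that fell was 11 and 13 without replicates 1 and 2 of 48 h, and 10 and 11 without replicates 1 and 2 of 24 h, and of heat shock genes 3 and 5 without replicates 1 and 2 of 48 h, and 3 and 2 without replicates 1 and 2 of 24 h. Without replicate 2 of 24 h 1 of the reticulum genes fell, and in a fit of the 4 induced arrays the first 2 counts were 9 and 4.

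The list of interferon-stimulated genes also holds some receptor and kinase genes that receive the signal. Of its 39 tested genes 15 rose and 4 fell, with a median log2 change of 0.56, and the control median was 0.02. IFI16, a sensor of foreign DNA, had 3447 and 2700.4 at 48 h, against 495 and 447 at 24 h in induced cells and 350.5 and 396 at 48 h and 182 and 439 at 24 h in control cells (log2 2.70, adjusted p = 0.000537). IFIT3, an interferon-induced antiviral protein, had 881 and 754 at 48 h, against 236 and 186 at 24 h in induced cells and 159 and -50.5 at 48 h and 158 and 38.05 at 24 h in control cells (log2 1.96, adjusted p = 0.00676). In both genes the induced arrays at 48 h lay above the other 6. The IFIT3 relatives IFIT2 (at least 3.92-fold) and IFIT1 (log2 1.12), and by the log2 changes in brackets the synthetase-like OASL (1.85), the master regulator IRF7 (1.77), the ubiquitin-like ISG15 (1.19), the peptide transporter TAP1 (1.45), IFI44 (1.56) and the chemokine CXCL10 (at least 3.80-fold) also rose. Among the components that receive the signal, the receptor chain IFNGR1 (log2 1.02) and the kinase JAK1 (1.20) rose, while the chain IFNGR2 (log2 -1.90) fell, together with the membrane proteins IFITM2 (-1.08) and IFITM3 (-0.94) and the proteasome subunit PSMB10 (-0.68). The difference from the control change was called higher in 2 of the 39 (IFI16 and OASL) and lower in 2 (IFNGR2 and IFITM2), and the count of rises depended on single arrays: it was 4 and 10 without replicates 1 and 2 of 48 h, and 9 and 3 without replicates 1 and 2 of 24 h.
The response element of these genes, searched on both strands as GAAA, 2 bases of any kind and GAAA again, was in 7 of 11 promoters of those that rose (63.6%), in 2 of 3 of those that fell, in 5 of 15 of those not called and in 144 of 4599 of all tested genes (3.13%). It was in 3.65% of all promoters of the table. The element is known in genes of this kind, and promoters of genes that fell held it too. Its higher share than in all tested genes is thus no test of the change between the times. The promoters of IFI6 and IFIT3, which both rose and hold more than 1 match, are shown with their matches in capitals, read on the strand of the gene (GRCh38.p14, chr1:27672143-27672442 on the minus strand for IFI6 and chr10:89327747-89328046 on the plus strand for IFIT3).
IFI6: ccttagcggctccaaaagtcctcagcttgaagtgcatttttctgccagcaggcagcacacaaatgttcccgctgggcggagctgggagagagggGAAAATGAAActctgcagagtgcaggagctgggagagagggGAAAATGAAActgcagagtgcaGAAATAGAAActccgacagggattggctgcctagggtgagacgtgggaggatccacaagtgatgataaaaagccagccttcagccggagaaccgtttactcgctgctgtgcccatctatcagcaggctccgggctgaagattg
IFIT3: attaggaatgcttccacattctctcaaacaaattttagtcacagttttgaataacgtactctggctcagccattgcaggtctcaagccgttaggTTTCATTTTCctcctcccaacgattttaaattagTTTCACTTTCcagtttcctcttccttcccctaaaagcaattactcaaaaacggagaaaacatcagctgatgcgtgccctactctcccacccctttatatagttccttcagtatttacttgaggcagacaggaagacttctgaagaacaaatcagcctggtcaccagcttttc
The 3 matches of IFI6 start 156, 115 and 93 bases before its gene start, and the 2 of IFIT3, which lie on the opposite strand, start 156 and 122 bases before.

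NF-kB targets and inflammatory genes rose in 6 and fell in 3 of 26 tested cases (median 0.48). CXCL8, the neutrophil-attracting interleukin-8, had 1109 and 1971 at 48 h, against 299.7 and 182 at 24 h in induced cells and 264 and 323 at 48 h and 218 and 331 at 24 h in control cells (log2 2.66, adjusted p = 0.0016). CCL5, a chemokine of T cells and monocytes, rose by log2 1.88, CCL3 at least 4.82-fold, the NF-kB subunit RELB by 1.78 and the NF-kB inhibitor TNFAIP3 by 1.28, beside ICAM1 above. PLAUR, the urokinase receptor (log2 -2.26), TNFAIP2 (-1.22) and NFKBIE (-0.77) fell, and the number of falls was 0 and 1 without replicates 1 and 2 of 48 h, and 1 and 0 without replicates 1 and 2 of 24 h. RELB, CCL5, ICAM1 and CXCL8 were the 4 for which the difference from the control change was called. Of 9 genes of MHC class I and peptide loading 4 rose (TAP1, HLA-E, PSME1 and TAPBP; median 0.53), but HLA-E and PSME1 also changed by log2 0.80 and 0.79 in control cells, and 1 rose without either replicate of 48 h or without replicate 2 of 24 h. In MHC class II, HLA-DPA1 (at least 2.88-fold) and its regulator RFX5 (log2 1.31) rose among 9 genes, 1 of them with any 1 array left out. Lysosomal genes rose in 8 and fell in 1 of 35 cases (median 0.35). GRN, progranulin, had 6144 and 6242 at 48 h, against 1126 and 1258 at 24 h (log2 2.38), and the proton pump subunits ATP6V1D (at least 3.47-fold) and ATP6V1B2 (log2 1.14), the protease TPP1 (1.10), the lipase LIPA (0.96) and the sphingolipid activator PSAP (0.70) rose. CTSC, the cathepsin that activates granule proteases, fell by 0.96 on the log2 scale, and the lysosomal rises numbered 2 and 5 without replicates 1 and 2 of 48 h, and 5 and 2 without replicates 1 and 2 of 24 h. For lysosomal genes the difference from the control change was called higher for 2 and lower for 1 of the 35.

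A list of genes reported as lowered by AML1-ETO, some of them possibly in this cell model and so not independent evidence of direction, had 8 falls and 1 rise in 14 tested genes (median -0.94). Beside SPI1, CEBPA and the granule genes, RASSF2, a RAS-association tumour suppressor, had 522 and 607 at 48 h, against 2039 and 4259 at 24 h in induced cells and 3356 and 3485 at 48 h and 3082 and 4151 at 24 h in control cells (log2 -2.39, adjusted p = 0.000305). IGFBP7, a secreted binding protein of insulin-like growth factors, fell by 1.19 and DUSP6, a phosphatase of ERK kinases, by 1.18 on the log2 scale, and the rise was CDKN2A, which was not called when any 1 induced array was left out. Of 12 genes reported as raised 3 rose and 3 fell (median 0.08): RUNX1T1, CDKN1A and JUP, the junction protein plakoglobin, rose, and CCND2, MYC and LAPTM5 fell. JUP had 10644 and 6966 at 48 h, against 1239.7 and 1994 at 24 h in induced cells and 1873 and 1882 at 48 h and 557 and 906 at 24 h in control cells, so it was higher at 48 h in both (log2 2.45 and 1.40; difference not called, adjusted p = 0.215). Among 11 partners of the fusion, CBFB, the common subunit of RUNX factors, fell by 0.73 and RUNX3 by 1.02, while HDAC1, a histone deacetylase, rose by 0.64 on the log2 scale. No gene of that list rose without replicate 1 of 48 h, and 1 did without replicate 2 of 24 h. The stem cell markers MEIS1 (at least 3.65-fold higher) and MYB were the called members of 11. Neither MEIS1 nor MYB was called when any 1 array was left out, and of the genes reported as raised 1 fell without replicate 2 of 24 h. Of the genes reported as lowered 5 fell without replicate 1 of 24 h and 3 in a fit of the 4 induced arrays alone.

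**Figure D4:**
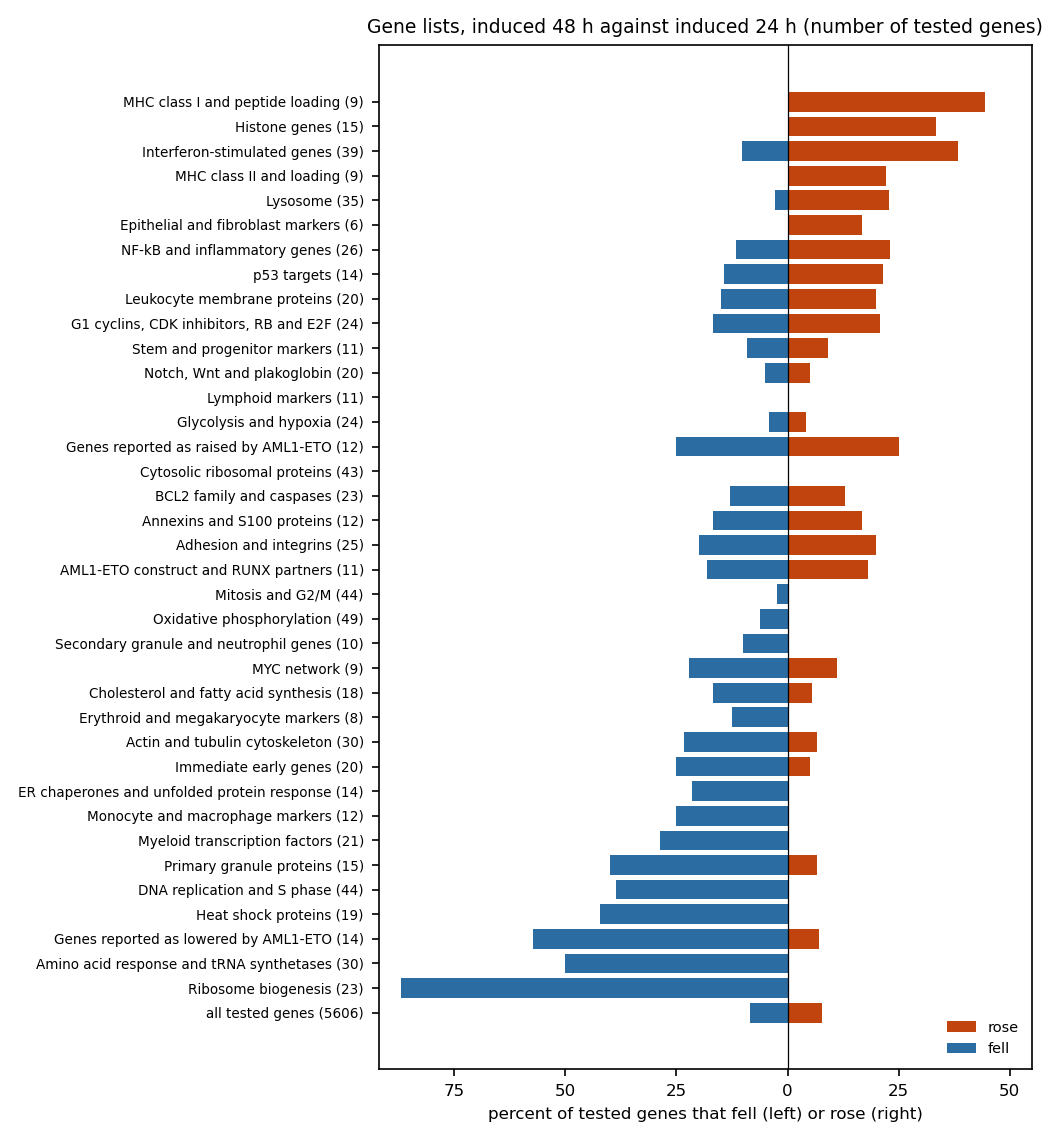
Bars give, for each gene list, the percent of its tested genes called lower (left of 0) and called higher (right of 0) in induced cells at 48 h against 24 h, with the number of tested genes in brackets; the bottom bar is all 5606 tested genes (8.54% fell and 7.74% rose). Ribosome biogenesis has the longest bar to the left (20 of 23 genes), and MHC class I (4 of 9) and interferon-stimulated genes (15 of 39) have long bars to the right.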

How the data were processed

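The authors deposited 1 linear scaled intensity for each of 12626 probe sets on every array, each array multiplied by its own scale factor, per the labels. All arrays have the same mean, and values below 0 occur (22.6% to 33.9% per array). The sources used here do not give the software that summarised the probes. Levels are relative to each array's total, so a change in RNA per cell is not visible.

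The floor is the 40th percentile of all values (135.6), since much lower percentiles are below 0 and have no logarithm. The filter kept probe sets above the median of all values (292.7) on at least 2 of 16 arrays, and 67 control probe sets were left out. Symbols came from the platform annotation: 10943 probe sets had 1 symbol, 546 several and 1070 none (6878, 385 and 561 of the 7824 tested), and probe sets with several gave no gene name. A linear model with 1 mean for each of 8 groups covered all 16 arrays (limma 3.58.1, R 4.3.3, eBayes with trend, 8 residual degrees of freedom), with two-sided tests and Benjamini-Hochberg adjustment over 7824 probe sets, at an adjusted p under 0.05. Contrasts were induced 48 h minus induced 24 h, control 48 h minus control 24 h, and their difference. Folds are ratios of fitted log2 means, and a fold is "at least" on that scale where arrays of the lower side lay at the floor. Precision is limited by the number of arrays, 2 per group.

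Among called probe sets of 1 symbol without overlap between the arrays, the text names the 15 genes that rose most and the 15 that fell most. It also names the 6 smallest p-values of the difference, RUNX1T1, and members of the 37 gene lists: the called ones with large changes, and those whose role is described. Named genes use the probe set with the larger absolute statistic, and list counts the one with the highest mean, so a gene can have a different value under a list. The samples, lists and promoter motifs were chosen with earlier results of these data known. On simulated data for this comparison (7824 probe sets, 200 changed), the model found 84.3% of changes of 4-fold, 22.2% at 2-fold and 1.49% at 1.5-fold, and made 5 false calls. The noise was normal with the spread fitted by the same model, and probe sets of the lowest mean levels were not changed. Fewer probe sets were changed than were called in the data, so these shares may not hold for the data. Alternatives were other floors, a generalised logarithm, no filter or a stricter one, quantile normalization, median centring, no trend, fewer arrays, a replicate block and each array left out. Promoters are those of RefSeq (GRCh38.p14), given for 4599 of 5606 tested genes.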

Additional observations from a re-analysis of the deposited data

Results flagged for a closer look

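For 25 of the 33 named genes the change between 24 h and 48 h differed between induced and control cells by the test of the difference itself (limma, adjusted p between 0.00051 and 0.0435); 4.88% of all tested probe sets were called in that test. The values in brackets are the induced change minus the control change on the log2 scale. The change of induced cells was the higher one for 8 genes: TMT1A (3.87), CDKN1A (3.76), SMARCD3 (3.55), MAGED2 (3.17), NFKB2 (3.13), SEMA3A (3.05), TM7SF2 (3.04) and LZTS3 (2.93). For TMT1A, CDKN1A, NFKB2 and LZTS3 every control array at 24 h and 48 h was under the floor. Their control change was thus set by the floor and not measured, and the value is the induced change alone. It was the lower one for 17 genes. Among these were the transcription factors IRF8 (-4.29), SPI1 (-3.25) and MYC (-1.91). Genes of varied roles were TUBA4A (-4.08), RAC2 (-3.82), KCNAB2 (-3.88), ATP2A3 (-3.49), MFNG (-3.70), LST1 (-3.92) and IL17RA (-3.55). The others were CLUH (-4.47), TRMT1 (-3.94), PSMG1 (-3.57), NBEAL2 (-3.47), RNASE2CP (-3.34), ZFP36L2 (-2.70) and EXOSC7 (-1.92). For the other 8 genes, RUNX1T1, IFI6, IRF9, SSBP2, MYL6, MACF1, STAB1 and INPP4A, the difference was not called (adjusted p = 0.0612 for IFI6 to 0.483 for INPP4A). IL17RA, MAGED2, KCNAB2, MYC, ZFP36L2 and EXOSC7 were taken for the smallest p of this same test, so their calls were set in advance. Most of the named genes were chosen for their induced change, so the call and the size of the difference are partly set by that choice. The share of named genes called is therefore no test against the share of all probe sets.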

How the results depend on the processing

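The count of called probe sets between induced cells at 48 h and 24 h was 1003 to 1406 under the other floors, the generalised logarithm, both filters, both normalizations, the fit without a trend and the fit of 8 arrays, and 734 in a fit of the 4 induced arrays, which has fewer residual degrees of freedom. With 1 of the 4 arrays left out, so that a lone array is taken to vary like the other groups, it was 499 to 732. Control cells, with 0 calls, gave 1 with the floor at the 50th percentile, 5 with no filter, 2 without the trend and 0 to 1 with 1 array left out. The difference between the changes, with 382 calls, gave 268 to 529, and 126 to 372 with 1 of 8 arrays left out. No direction of a named gene reversed. Of 495 combinations of 33 named genes and 15 settings 462 kept the call, and 21 of the genes lost it in none. The generalised logarithm lost the calls of RUNX1T1, MYL6, IRF9, TM7SF2, MACF1 and INPP4A (adjusted p = 0.0517 to 0.232); the cause was not tested. With no filter IRF9, MACF1 and INPP4A were lost (adjusted p = 0.0544 to 0.164), and MACF1 also with the floor at the 35th percentile, without the trend and in the fit of 8 arrays. The fit of the 4 induced arrays gave 6 rises of interferon-stimulated genes, 5 of lysosomal genes and 10 falls of replication genes. Median centring set the median of all tested probe sets at -0.01, against 0.08.

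Replicate numbers are shared between the groups, but replicates of the same number did not deviate together (r = 0.094 in induced cells and 0.076 in control cells, 2 pairs each). A fit with the replicate number as a block gave 1232 calls in induced cells, 0 in control cells and 394 in the difference, and the pairing is not used otherwise.

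With 2 arrays per group, changes under 4-fold were often missed in simulation. Levels under the floor have no order. Probe sets of 1 gene disagreed on the call in MYL6, INPP4A and NFKB2, and differed in the size of the change in other genes, such as KCNAB2 and RAC2.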

Other observations

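Of 49 tested genes of oxidative phosphorylation 3 fell and none rose (median log2 -0.04): the ATP synthase subunits ATP5MC1 (log2 -1.10) and ATP5F1D (-0.63) and the complex I subunit NDUFV1 (-0.56). Of 24 genes of glycolysis and hypoxia 1 rose, BNIP3L, a mitophagy receptor (log2 2.06), and 1 fell, the isomerase GPI (-1.25). In lipid synthesis 3 of 18 genes fell, the desaturase SCD (at least 6.22-fold), the fatty acid synthase FASN (log2 -2.14) and PMVK of the mevalonate pathway (-1.80), while SREBF2, the factor that drives cholesterol synthesis, rose (0.85). FASN had 1763 and 3322 at 48 h, against 10319 and 10974 at 24 h in induced cells and 11763 and 11456 at 48 h and 12132 and 10908 at 24 h in control cells.

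Of 20 Notch and Wnt pathway genes JUP rose and MFNG fell, and of 12 annexins and S100 proteins 2 rose and 2 fell. Of the annexins and S100 proteins 0 to 2 rose with 1 array left out, none of them without replicate 2 of 24 h, and 1 to 2 fell. Among 23 BCL2 family members and caspases 3 rose and 3 fell. BID, a death agonist, was at least 8.45-fold lower, the death receptor TNFRSF10B at least 4.65-fold lower and the survival protein BCL2L1 fell by 1.03 on the log2 scale, while MCL1, another survival protein, rose by log2 0.95. Of 14 targets of p53, CDKN1A, BTG1 (log2 1.55) and PPM1D (0.80) rose, and PCNA and TNFRSF10B fell. Of 20 immediate early genes 5 fell, among them KLF10 (at least 5.02-fold) and DUSP4 (at least 2.70-fold), and KLF6 rose (log2 1.02). In the MYC network MYC and MYCBP2 (-0.90) fell and MXI1, an antagonist of MYC, rose (0.90) among 9 genes. With 1 array left out, 1 to 2 BCL2 family genes rose and 1 to 3 fell, 2 to 4 immediate early genes fell and none rose, and 0 to 2 MYC network genes fell. Without replicate 2 of 48 h or replicate 1 of 24 h, 1 gene of oxidative phosphorylation fell.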
